A study of Mus musculus with 19 samples.

Results

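Potassium channels are built from subunits that line a pore for potassium ions, and their genes form one of the largest ion channel families of mammals. The genes described here are the 90 protein-coding genes whose mouse symbol starts with Kcn, out of 39179 genes in the count files. Of 94 such genes, Kcnj8, Kcnj10, Kcnj13 and Kcne2 are left out here; they are also marker genes of pericytes, astrocytes or choroid plexus. The rule uses the symbol and no measured value, but it was set with earlier results of these data known.

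An open potassium channel lets potassium leave the cell and moves the membrane potential to a more negative value. In neurons this ends the action potential, sets the resting potential and limits repetitive firing. In smooth muscle and pericytes of the vessel wall it closes voltage-gated calcium channels and relaxes the vessel, and in endothelium it is a step of dilation that follows a rise of calcium. Voltage-gated pore subunits carry the names Kcna, Kcnb, Kcnc, Kcnd, Kcnh and Kcnq. Inward rectifiers are named Kcnj, two-pore-domain leak channels Kcnk, and channels gated by calcium or sodium Kcnma, Kcnn and Kcnt. Kcnu1, a relative of Kcnma1, is counted with the last group here without sharing that gating. Kcnab, Kcnip, Kcnmb and Kcne genes encode auxiliary subunits that change the surface level, gating or calcium sensitivity of a pore.

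Small vessels of the brain (cerebral microvessels) were taken from male C57BL/6 mice bought at 7 weeks of age, and their polyadenylated RNA gave 19 libraries (single-end reads of 80 nt, strand-specific). Of the 5 groups in the labels, 2 had only room air: 4 libraries titled Room-air and 4 titled air. The exposed groups had e-cigarettes free of nicotine (Nic-free, 4), e-cigarettes with nicotine (Nic, 3) or smoke (4). The labels give no dose, duration, age at collection, litter or batch, and do not tie either set of controls to an exposed group. Room-air was used as the control of both e-cigarette groups and air as the control of smoke. This pairing is an assumption read from the titles, which do not state it. Nothing in the labels says that the libraries of a group came from separate animals, so the p-values refer to the spread among these samples, which may be technical.

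Depth ran from 25266790 to 30185056 counts per library in Room-air, 15200536 to 19137859 in Nic-free, 21800157 to 28364198 in Nic, 9761373 to 13490373 in air and 7939180 to 12607538 in smoke. Levels are counts per 1000000 counts of genes (CPM). The 90 genes held 0.358 to 0.473% of the counts of a library. Group means of this share were 0.411 ± 0.0241% in Room-air, 0.440 ± 0.0230% in Nic-free, 0.442 ± 0.0265% in Nic, 0.430 ± 0.0209% in air and 0.398 ± 0.0295% in smoke (SD over libraries).

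The labelled tissue was checked against marker genes of 10 cell types. Each of the 20 endothelial markers had counts in every group, with a summed level of 5320 to 7012 CPM in Room-air, 3871 to 5715 in Nic-free, 4971 to 8981 in Nic, 3004 to 4655 in air and 4453 to 5585 in smoke. The 20 neuron markers summed to 9059 to 10383 CPM in Room-air, 12537 to 14482 in Nic-free, 9840 to 10207 in Nic, 11013 to 13857 in air and 8212 to 12621 in smoke. Choroid plexus and ependyma markers summed to 17694 to 24973 CPM in Room-air, 882 to 18559 in Nic-free and 2113 to 7154 in Nic. Their sums were 3723 to 24709.5 in air and 1781 to 26888 in smoke. Oligodendrocyte markers summed to a mean of 14204 CPM in Room-air, 20217 in Nic-free, 11908 in Nic, 26886 in air and 21219 in smoke. The preparations thus held RNA of neurons, oligodendrocytes and choroid plexus or ependyma beside that of vessels. These are bulk samples, in which fewer cells of a type and less RNA per cell cannot be told apart.

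Sequences upstream of the start sites are shown first, since many of the genes below moved in the same comparison. RefSeq windows of the 250 bases before the annotated start (build GRCm38.p6) were found for 65 of the 90 genes, 89 windows in all. Each was searched on both strands, overlapping matches included, for 3 motifs: the GC box GGGCGG, which Sp-family factors bind, the cyclic AMP response element TGACGTCA and the TATA box TATAAA. A GC box stood in 44.9% of the windows, against 32.7% of all 32851 windows of the table. A TATA box stood in 2.2% against 12.4%, and the cyclic AMP response element in 0.0% against 1.5%. The median GC content was 58.8% against 52.4%. Windows of genes that rose in Nic-free against Room-air held a GC box in 10 of 21, those of genes that fell in 2 of 5, and those of genes tested that did not pass in 25 of 51. The windows of 4 genes are printed 5′ to 3′, with GC boxes of either strand in capitals: the 2 risers and 2 fallers of Nic-free against Room-air with the lowest p among genes with a single window that holds no annotated exon.
Kcnj4: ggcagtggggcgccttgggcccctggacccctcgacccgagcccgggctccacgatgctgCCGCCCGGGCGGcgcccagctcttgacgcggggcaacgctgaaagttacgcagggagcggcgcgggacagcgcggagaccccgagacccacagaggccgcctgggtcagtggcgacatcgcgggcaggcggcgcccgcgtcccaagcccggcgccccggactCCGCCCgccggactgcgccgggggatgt
Kcna4: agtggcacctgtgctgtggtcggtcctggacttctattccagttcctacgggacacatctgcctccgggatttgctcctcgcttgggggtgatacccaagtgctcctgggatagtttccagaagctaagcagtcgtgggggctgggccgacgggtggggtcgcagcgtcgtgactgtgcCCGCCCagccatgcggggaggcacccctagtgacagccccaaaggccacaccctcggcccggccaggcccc
Kcna5: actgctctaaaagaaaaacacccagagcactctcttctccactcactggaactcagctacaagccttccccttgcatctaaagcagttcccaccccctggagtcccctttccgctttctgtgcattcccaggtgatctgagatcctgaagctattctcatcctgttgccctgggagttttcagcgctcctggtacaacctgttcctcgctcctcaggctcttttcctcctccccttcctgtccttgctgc
Kcnk1: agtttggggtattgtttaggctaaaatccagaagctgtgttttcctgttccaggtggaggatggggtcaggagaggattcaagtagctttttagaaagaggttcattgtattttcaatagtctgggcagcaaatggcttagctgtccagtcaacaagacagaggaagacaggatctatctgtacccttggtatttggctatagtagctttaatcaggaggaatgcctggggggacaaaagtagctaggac
The Kcnj4 window (chr15:79505242-79505491, minus strand) has a GC content of 77.2% and 3 GC boxes, 2 of them end to end. The Kcna4 window (chr2:107290339-107290588, plus strand) has 65.2% and 1 GC box. Those of Kcna5 (chr6:126535556-126535805, minus strand, 53.2%) and Kcnk1 (chr8:125994852-125995101, plus strand, 44.4%) have none. A match is a description of these letters and not a bound site.

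Most of the genes were measurable. Counts were present in every library for 76 of the 90, the mean reached 1 CPM for 73 and 100 CPM for 13. In at least 1 comparison 77 passed the filter on low counts. The other 13 were tested in none and reached at most 0.512 CPM in any library: Kcna7, Kcna10, Kcne1, Kcne3, Kcnj1, Kcnj15, Kcnk7, Kcnk15, Kcnk16, Kcnk18, Kcnmb3, Kcnrg and Kcnv2. Kcnk16 had 0 counts in all 19 libraries, which allows up to 0.0994 to 0.378 CPM by library (3 counts, counting error only).

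Levels of different genes were compared as CPM per kb of exon (GENCODE M21), with the mean and SD over the 19 libraries. Kcnab2, an auxiliary beta subunit of Kv1 channels, was highest at 53.2 ± 10.5 CPM per kb. Kcnip2, a calcium-binding partner of Kv4 channels, followed at 50.9 ± 7.70, and Kcnk1, a weak two-pore leak channel, at 46.1 ± 7.00. Kcnj4, a strong inward rectifier of forebrain neurons, stood at 43.6 ± 8.72 and Kcnt1, a sodium-activated channel, at 40.5 ± 6.36. Each of these differs from the next by less than the SD of either over the 19 libraries, and their order was not tested.

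Below them stood Kcna1, Kcnh3 and Kcnip3 and then Kcnj9 and Kcnab3, and within each of these sets neighbours again differ by less than their SD. Kcna1, the Kv1 pore of axons, stood at 32.9 ± 5.66 CPM per kb. Kcnh3, of the ether-a-go-go family, was at 31.8 ± 4.86 and Kcnip3, another Kv4 partner, at 30.5 ± 3.19. Kcnj9, a G protein-gated inward rectifier, was at 24.9 ± 3.34 and Kcnab3, a further beta subunit, at 22.8 ± 3.70. Genes known from the vessel wall were lower on this scale, though over a range, and Kcnj8 is left out here. Kcnk3 was at 6.54 CPM per kb, Kcnj2 at 3.29, Kcnj12 at 3.08 and Kcna5 at 2.32. Kcnma1, the pore of the large-conductance calcium-activated (BK) channel, was at 1.86 ± 0.310. Its exon length of 16976 bases, the longest here, lowers a level per kb. Kcnj11, a pore of ATP-sensitive channels, was at 1.76 ± 0.383. Kcnmb1, the BK beta subunit of smooth muscle, was at 0.939 ± 0.294, and Kcnn3 at 0.363.

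**Figure D1:**
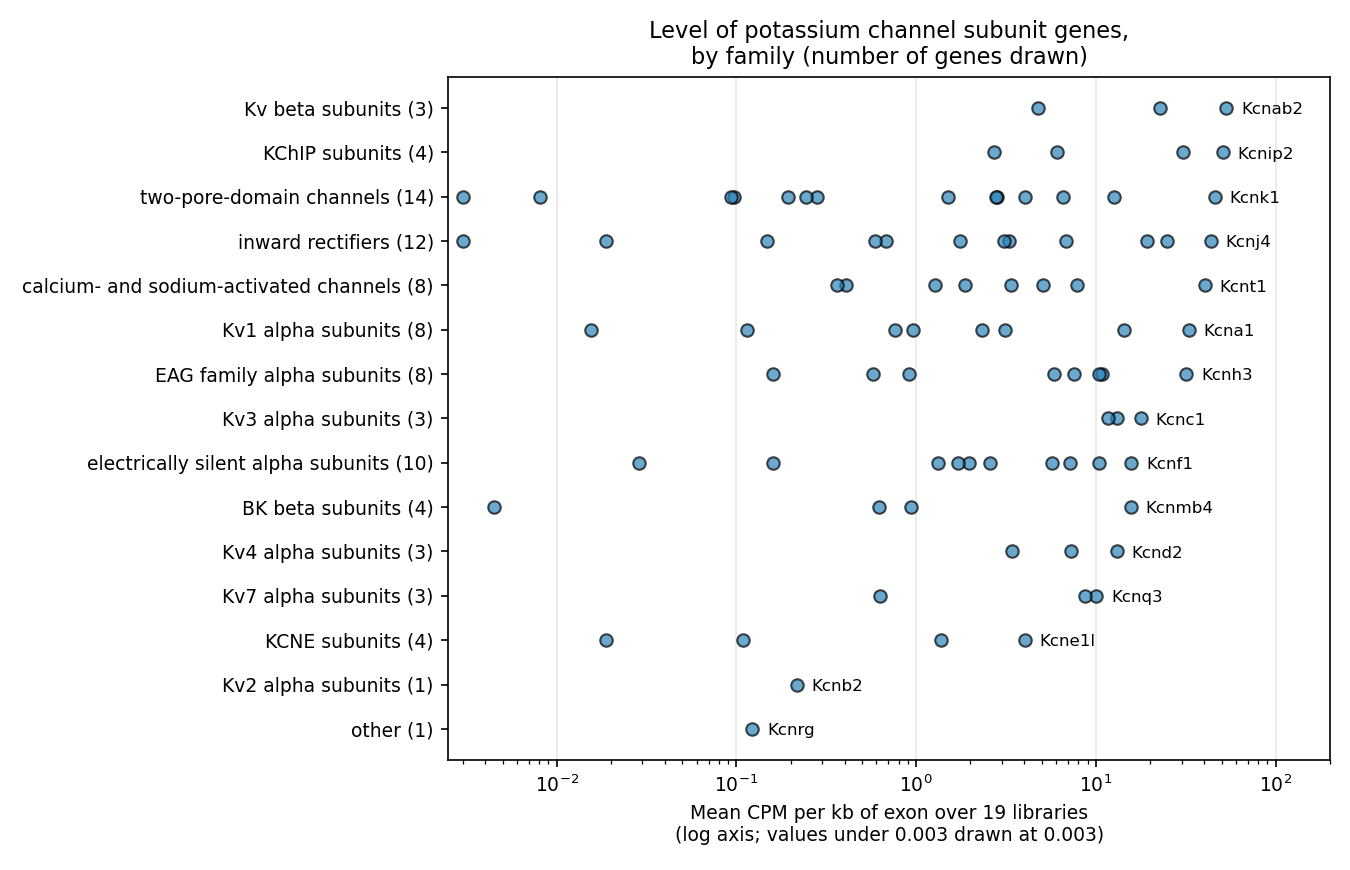
Mean level of 86 of the genes over the 19 libraries in CPM per kb of exon (log axis, values under 0.003 drawn at 0.003), by family, with the highest gene drawn in each family named. Kv beta and KChIP subunits lead, with Kcnab2 and Kcnip2 above 50 CPM per kb, and the inward rectifiers span 0.00211 (Kcnj1) to 43.6 (Kcnj4).

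As shares of all counts of the 90 genes, Kv7 (Kcnq) subunits held 17.9% and channels gated by calcium or sodium, with Kcnu1, 12.7%. Kv3 (Kcnc) held 10.5% and the ether-a-go-go family (Kcnh) 10.1%. These shares grow with transcript length as well as level. The Kv7 share ranged from 16.7 to 19.8% between libraries. Within genes, the SD of log2 CPM over the 19 libraries (0.5 added to each CPM) had a median of 0.27 among the genes tested. It was 0.16 for both Kcnip3 and Kcnc4 and highest for Kcnk9, an acid-sensitive leak channel, at 0.68, followed by Kcnj5 at 0.55 and the Kv1 pore Kcna3 at 0.53.

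Exons of 27 of the genes share bases with another annotated gene, for 25 of them on the opposite strand. Whether counting used the strand is not given in the sources used here, so reads of such pairs may not have been told apart and these counts are uncertain. The shared length is among the largest for Kcna6 (2355 bases), Kcnj3 (1621), Kcnmb4 (1048), Kcnma1 (1016), Kcnh7 (696), Kcnn2 (607) and Kcnk2 (604). It is under 400 bases for Kcnab1, Kcnab3, Kcnd3, Kcng2, Kcnip4, Kcnj6, Kcnk1, Kcnk3, Kcnn1, Kcnq1 and Kcnq5 among the genes named below.

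The genes on which the comparisons turn are placed as follows in GRCm38, over exons, introns and untranslated regions. Genes of the minus strand are Kcnk2 at chr1:189207930-189402273, Kcnk9 at chr15:72501089-72546340, Kcnk6 at chr7:29221926-29232515 and Kcna5 at chr6:126532551-126535412, and Kcnmb4 at chr10:116417861-116473878, Kcnab2 at chr4:152390742-152477871, Kcnh2 at chr5:24319589-24351604, Kcnh4 at chr11:100740376-100759942 and Kcnj6 at chr16:94748636-94997701. Genes of the plus strand are Kcnab1 at chr3:65109384-65378223, Kcnj2 at chr11:111066164-111076821 and Kcnmb1 at chr11:33963013-33973641.

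Of the 77 genes tested, 45 passed an adjusted p of 0.05 in at least 1 of 6 comparisons and 32 in none. Each comparison was fitted with edgeR over all genes that passed the filter, with p adjusted over all of them. Fold changes are log2 values with their standard error (SE).

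**Figure D2:**
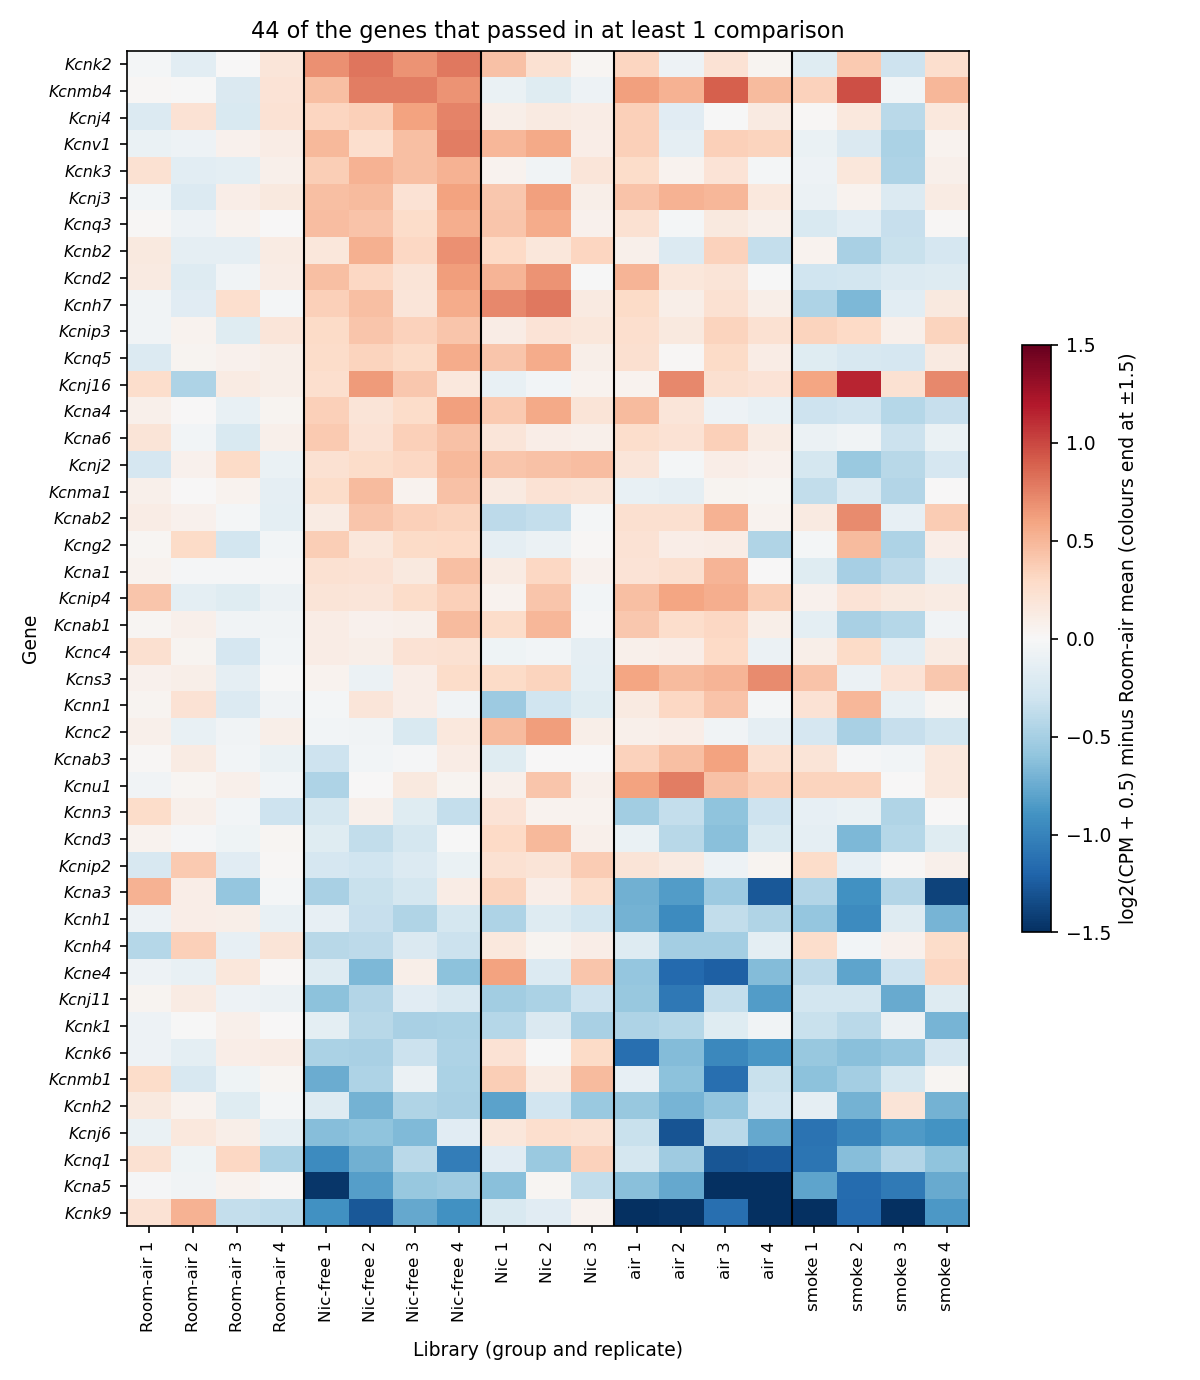
Level of 44 of the 45 genes that passed in at least 1 comparison, as log2(CPM + 0.5) of each library minus the mean of the 4 Room-air libraries, with colours ending at ±1.5. Red marks higher and blue lower levels; Kcnk2 is red in all 4 Nic-free libraries, and Kcnk9 is blue in all Nic-free, air and smoke libraries.

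The first comparison sets the libraries of e-cigarette exposure without nicotine against the Room-air libraries. Here rose and fell mean higher and lower than in the control, and the 2 unexposed sets also differed, as given below. In Nic-free against Room-air, 19 of the 77 genes tested rose and 7 fell, 33.8% of those tested, where 21.8% of all 17235 genes tested passed (11.3% higher and 10.4% lower). The median log2 fold change was 0.06 over the 77 genes and 0.004 over all genes. By role, 9 of 28 voltage-gated pore subunits rose and 3 fell, 3 of 12 auxiliary subunits rose, 3 of 10 inward rectifiers rose and 1 fell, and 2 of 10 two-pore-domain genes rose and 3 fell. The largest rise was that of the leak channel Kcnk2 and the largest fall that of the leak channel Kcnk9. Ranges of CPM did not overlap between the groups for 16 of the 19 risers and 6 of the 7 fallers, and 3 genes that did not pass were lower without overlap. In all, 16 of the 77 genes were higher without overlap and 9 lower (20.8% and 11.7%), where 11.2% and 15.6% of all genes tested were.

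Kcnk2, the leak channel TREK-1 that responds to stretch and lipids, stood at 50.95, 46.3, 52.01 and 58.7 CPM in Room-air and at 83.4, 90.8, 82.7 and 90 in Nic-free. All Nic-free libraries were above all Room-air libraries. Kcnk2 rose by 0.79 ± 0.10 on the log2 scale (95% interval 0.58 to 1.00, edgeR adjusted p 0.000323). Kcnk3, the acid-sensitive leak channel TASK-1, rose by 0.52 ± 0.10 (edgeR adjusted p 0.00355), from 23.7 ± 3.18 to 32.7 ± 1.74 CPM (SD, n = 4 each).

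Kcnmb4 encodes the BK beta subunit of neurons, which slows BK channels. It stood at 39.99, 39.4, 34.2 and 45.8 CPM in Room-air and at 54.5, 67.9, 67.9 and 63.4 in Nic-free. The groups did not overlap. Kcnmb4 rose by 0.72 ± 0.10 (95% interval 0.50 to 0.94, edgeR adjusted p 0.000609). Its pore Kcnma1 rose by 0.37 ± 0.10 (edgeR adjusted p 0.0156), with 27.6 to 32.2 CPM in Room-air and 31.7 to 42.5 in Nic-free, ranges that overlap. Kcnmb1, the smooth muscle beta subunit, did not pass (−0.43 ± 0.18, edgeR adjusted p 0.0971).

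Kcnb2, a delayed rectifier pore, rose by 0.54 ± 0.16 (edgeR adjusted p 0.0287) at a low level, from 3.05 ± 0.378 to 4.29 ± 0.766 CPM, and is named after its value was seen. Kcnv1, a silent subunit that joins Kv2 pores, lay between 38.6 and 44.5 CPM in Room-air and between 49.1 and 70.5 in Nic-free. It rose by 0.55 ± 0.12 (edgeR adjusted p 0.00551).

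Of the 8 genes of axonal Kv1 channels and the M-current, 5 rose and none fell. Kcna1 stood at 153, 146, 146 and 146 CPM in Room-air and 172, 172, 164 and 203 in Nic-free and rose by 0.31 ± 0.09 (edgeR adjusted p 0.0209). Every Nic-free library was above every Room-air library. Kcna4, a Kv1 pore with fast inactivation whose window is printed above, rose by 0.42 ± 0.11 and the beta subunit Kcnab2 by 0.36 ± 0.10 (edgeR adjusted p 0.0175 and 0.0238). Kcnq3 and Kcnq5, subunits of the M-current that holds back repetitive firing, rose by 0.48 ± 0.10 and 0.41 ± 0.11 (edgeR adjusted p 0.00511 and 0.0164), with Kcnq3 at 180.0 ± 13.6 CPM against 133 ± 4.82. Kcna2 and Kcnab1 did not pass (−0.05 and 0.24). Kcna6, a further Kv1 pore outside that list, rose by 0.40 ± 0.09 (edgeR adjusted p 0.00879).

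Of the 7 genes of the A-type channel, which opens below the firing threshold, 2 rose and none fell. The pore Kcnd2 rose from 60.2 ± 6.37 to 79.6 ± 10.7 CPM (0.45 ± 0.14, edgeR adjusted p 0.0315) and its partner Kcnip3 from 93.2 ± 9.95 to 119.9 ± 4.99 (0.41 ± 0.09, edgeR adjusted p 0.00615). The other five had values of −0.15 (Kcnd3), 0.24 (Kcnd1), 0.17 (Kcnip1), −0.19 (Kcnip2) and 0.29 (Kcnip4). None of the 4 Kv3 pores, which let interneurons fire fast, passed, with values such as 0.01 (Kcnc2), 0.20 (Kcnc4) and −0.001 for Kcnc1. In the ether-a-go-go family Kcnh7 rose by 0.44 ± 0.14 and Kcnh2, which encodes the ERG1 channel, fell by 0.41 ± 0.13 (edgeR adjusted p 0.0353 and 0.0342).

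Among the inward rectifiers, Kcnj4 was the clearest riser. It stood at 72.7, 97.4, 71.2 and 97.8 CPM in Room-air and 105, 108, 127 and 141 in Nic-free, without overlap, a rise of 0.55 ± 0.12 (edgeR adjusted p 0.00775). Kcnj2, a strong rectifier of neurons and vessel wall, rose by 0.37 ± 0.11 (edgeR adjusted p 0.0308) with ranges that overlap. The 4 G protein-gated (GIRK) subunits, which open when neurotransmitters act on receptors coupled to G proteins, parted ways. Kcnj3 rose by 0.49 ± 0.12 (edgeR adjusted p 0.0123), from 84.6 ± 9.17 to 114 ± 12.7 CPM, whereas Kcnj6 fell by 0.51 ± 0.14 (edgeR adjusted p 0.0197), from 6.78 ± 0.725 to 4.61 ± 0.881. Kcnj9 (−0.14 ± 0.11) and the scarce Kcnj5 (−0.63 ± 0.60) did not pass.

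The 2 genes with the lowest p among the falls are both at low level. Kcnk9, the leak channel TASK-3, stood at 4.74, 5.97, 3.01 and 2.96 CPM in Room-air and 1.91, 1.37, 2.14 and 1.91 in Nic-free. Each Nic-free library was below each Room-air library, and Kcnk9 fell by 1.14 ± 0.24 (95% interval −1.66 to −0.62, edgeR adjusted p 0.00509). Kcna5, a Kv1 pore of vascular smooth muscle, stood at 10.04, 9.76, 10.5 and 10.3 CPM in Room-air and 3.35, 5.48, 6.69 and 6.84 in Nic-free. It fell by 0.81 ± 0.19 (edgeR adjusted p 0.00963) with no overlap. Kcnk6, a two-pore channel of endothelium and other cells, fell by 0.42 ± 0.12, Kcnk1 by 0.32 ± 0.10 and the Kv7 pore Kcnq1 by 0.87 ± 0.26 (edgeR adjusted p 0.0233, 0.0296 and 0.0298). Of the 11 channel genes of the vessel wall, 3 rose (Kcnj2, Kcnk3 and Kcnma1) and 2 fell (Kcna5 and Kcnk6). Kcnj11, Kcnj12, Kcnmb1, Kcnn3 and Kcnn4 did not pass (−0.43 to −0.10).

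**Figure D3:**
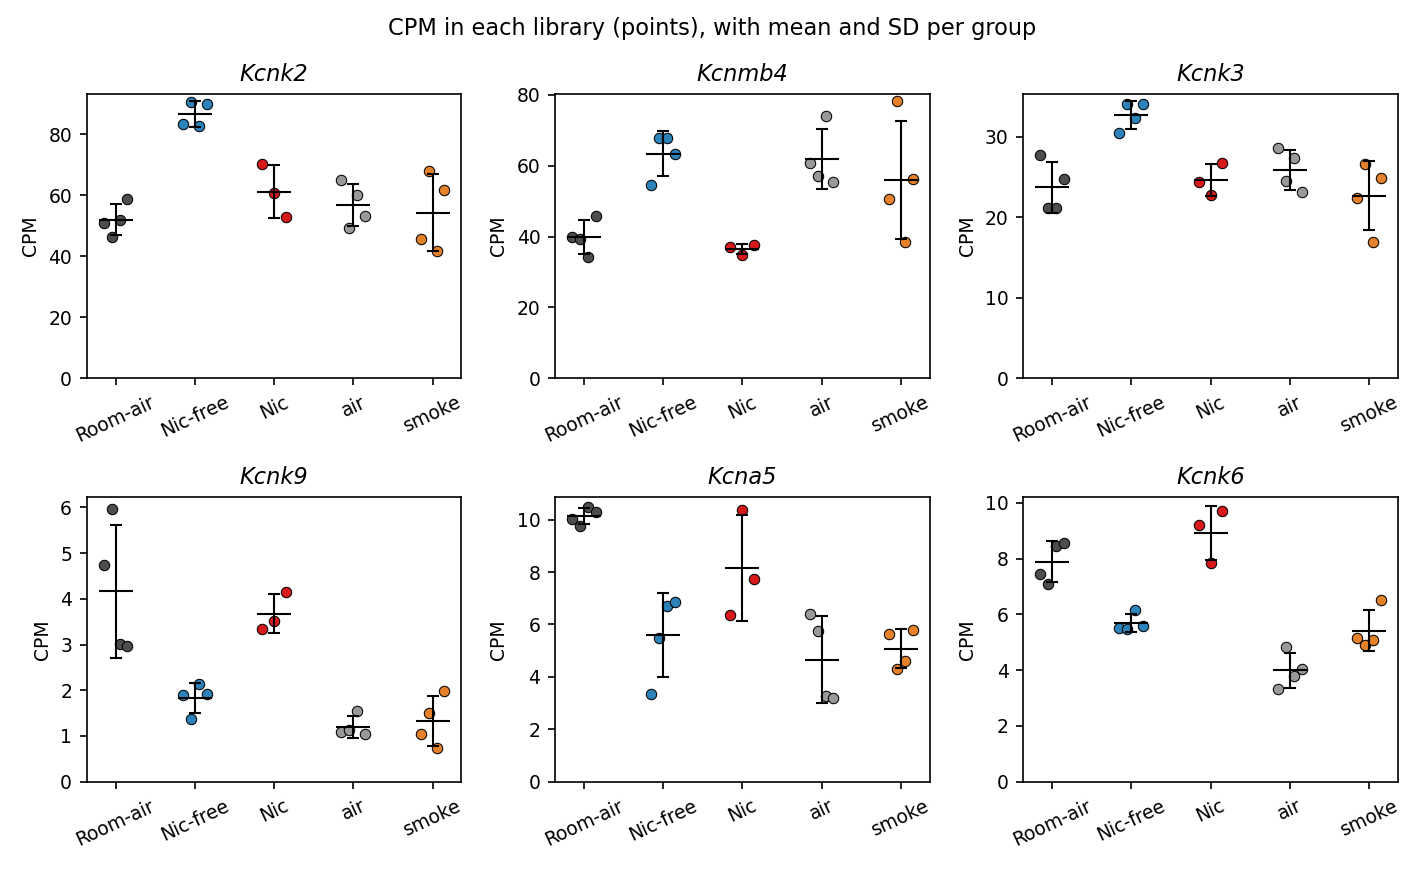
CPM of 6 genes in each library (points) with the mean and SD (bars) of the 5 groups. The Nic-free libraries lie above the Room-air libraries for Kcnk2, Kcnmb4 and Kcnk3 and below them for Kcnk9, Kcna5 and Kcnk6. The air set spans 55.4 to 74.1 CPM for Kcnmb4, 1.04 to 1.56 for Kcnk9 and 3.21 to 6.40 for Kcna5.

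Marker genes of cell types moved with this comparison. Of 20 neuron markers 11 rose and none fell, and the mean of their log2(CPM + 1) stood 1.23-fold above Room-air (two-sided exact permutation p 0.0571, adjusted 0.15 over 50 tests). Of the markers of astrocytes 6 of 12 rose (1.22-fold, exact p 0.0286), of oligodendrocytes 6 of 10 (1.24-fold, exact p 0.0571) and of microglia 6 of 11 (1.24-fold, exact p 0.0286), and none of these fell. Of 20 endothelial markers 6 fell and none rose (0.72-fold, exact p 0.0571), and pericyte markers stood at 0.818-fold (exact p 0.0857). Markers of smooth muscle (0.876-fold), fast-spiking interneurons (1.12-fold) and oligodendrocyte precursors (0.98-fold) had exact p of 0.486, 0.343 and 0.771. Choroid plexus and ependyma markers stood at 0.292-fold (exact p 0.0286). No list passed after adjustment (lowest adjusted p 0.15), 4 libraries against 4 cannot give an exact p below 0.0286, and no marker was at 0 in any group. Reads outside annotated features were 42.1 ± 2.57% in Nic-free and 30.7 ± 2.28% in Room-air. The part of the markers and of these reads in the channel results was not tested.

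Partners of the channels moved in the same comparison. Of 14 partner genes 12 were tested, of which 4 rose and 1 fell. Lgi1, a secreted protein of Kv1 complexes, rose by 0.64 ± 0.11 (edgeR adjusted p 0.00187), Dpp10 and Dpp6, partners of Kv4, by 0.55 and 0.30, and Ank3, which anchors Kv7 channels at the axon initial segment, by 0.51. Abcc9, the sulfonylurea receptor of vascular ATP-sensitive channels and a pericyte marker, fell by 0.48 ± 0.15 (edgeR adjusted p 0.0309). Of 4 HCN genes, which encode cation channels related to the Kv pores, Hcn4 fell by 0.94 ± 0.25 (edgeR adjusted p 0.0185).

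The number of genes past the threshold depended on single libraries and on the control. It was 13 without Nic-free replicate 4 and 15 without Nic-free replicate 2, against 26. With the air set as control 6 genes passed, of the 26 only Kcnk2 kept its call, and Kcna5, Kcnh2, Kcnj6, Kcnk6, Kcnk9 and Kcnq1 changed sign.

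E-cigarette exposure with nicotine was compared with the same Room-air libraries. In Nic against Room-air 1 of 77 genes passed, 1.3% of those tested, where 3.89% of all genes tested passed (2.67% lower), and 17 had an unadjusted p under 0.05 (22.1%, against 24.4% of all genes tested). The median log2 fold change was 0.07 over the 77 genes and 0.03 over all genes. Kcnh2 stood at 37.8, 54.2 and 44.8 CPM in Nic and 73.3, 68.5, 58.3 and 64.8 in Room-air. All Nic libraries were below all Room-air libraries. Kcnh2 fell by 0.56 ± 0.14 (95% interval −0.85 to −0.26, edgeR adjusted p 0.0412). The unexposed air set had a mean of 45.5 CPM for Kcnh2, beside 45.6 in Nic and 66.25 in Room-air. The call of Kcnh2 held in 7 of 14 alternatives and was not kept with the air set as control.

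No gene rose, and 8 genes had all Nic libraries above and 3 all Nic libraries below all Room-air libraries without passing. With Kcnh2, 10.4% of the 77 genes were higher and 5.19% lower without overlap, where 8.19% and 8.8% of all genes tested were. Kcnj2 stood at 22.3, 22.8 and 23.1 CPM in Nic and 13.9, 17.3, 20.4 and 15.4 in Room-air (0.42 ± 0.12, edgeR adjusted p 0.0605). Kcna4 (0.38 ± 0.12, edgeR adjusted p 0.0809) and Kcnq3 (0.34 ± 0.11, edgeR adjusted p 0.0864) are further cases. Genes that rose in Nic-free had values here such as 0.21 ± 0.11 for Kcnk2, −0.15 ± 0.11 for Kcnmb4 and 0.03 ± 0.11 for Kcnk3, none of which passed. Both comparisons share the Room-air libraries. The 95% interval of Kcnmb4 ran from −0.38 to 0.09.

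Neuron markers stood at 0.986-fold in Nic against Room-air (two-sided exact permutation p 0.914) and endothelial markers at 1.24-fold (exact p 0.343), with no gene of either list past the threshold. With 3 libraries against 4 the exact p cannot fall below 0.0571. Choroid plexus and ependyma markers stood at 0.369-fold (exact p 0.0571). In the pericyte list Abcc9 and in the microglia list Gpr34 were higher and in the astrocyte list Aldh1l1 lower. The part of these markers was not tested. Of the 12 channel partners tested, Abcc9 rose by 0.59 ± 0.15 (edgeR adjusted p 0.0482), and no HCN gene passed. The count of channel genes was 15 without Nic replicate 3, of which 11 were higher. It was 0 without Nic replicate 1 and without any of Room-air replicates 1, 2 and 4, was 3 without Room-air replicate 3 and 2 without Nic replicate 2, and was 8 with DESeq2.

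The 2 e-cigarette exposures differ in nicotine by their labels, and Nic was compared with Nic-free directly. Of 77 genes 7 were higher and 11 lower in Nic, 23.4% of those tested, near the 24.8% of all genes tested that passed. The median log2 fold change was −0.05 over the 77 genes and 0.02 over all genes. By role, 2 of 12 auxiliary subunits and 2 of 10 two-pore-domain genes were higher and as many lower, and 2 of 28 voltage-gated pores were higher and 3 lower. All 11 genes that were lower and 6 of the 7 that were higher had CPM ranges without overlap, as did 2 lower and 4 higher genes that did not pass. These are 16.9% of the 77 genes lower and 13% higher without overlap, where 13.2% and 20.7% of all genes tested were.

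Kcnmb4 was lowest by p. It stood at 37.1, 34.9 and 37.6 CPM in Nic, below each of the 4 Nic-free libraries given above, and the difference was −0.87 ± 0.11 (95% interval −1.11 to −0.63, edgeR adjusted p 0.000287). Kcnmb1 went the other way. It stood at 5.96, 4.97 and 6.49 CPM in Nic and 2.50, 3.14, 4.23 and 3.09 in Nic-free (0.76 ± 0.19, edgeR adjusted p 0.00977), without overlap.

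Kcnab2, the gene with the highest level per kb, stood at 202, 206 and 259 CPM in Nic and 289, 353, 339 and 333 in Nic-free, with no overlap. It was lower in Nic by 0.63 ± 0.11 on the log2 scale (edgeR adjusted p 0.00151, log2 fold change −0.63). Kcnk2 stood at 70.3, 60.7 and 52.7 CPM in Nic, under the Nic-free libraries (−0.58 ± 0.11, edgeR adjusted p 0.0019). Kcnk3 (−0.48), Kcnj4 (−0.48), Kcna6 (−0.31) and the Kv3 pore Kcnc4 (−0.31) were lower too. So were Kcnn1, a small-conductance calcium-activated (SK) pore of neurons (−0.48), Kcnj16, a partner of glial inward rectifiers (−0.49), and the silent subunit Kcng2 (−0.45), with edgeR adjusted p of 0.0188, 0.0363 and 0.0435.

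Kcnj6 had the lowest p among the genes that were higher in Nic. It stood at 7.66, 8.11 and 7.97 CPM in Nic and 4.14, 4.28, 4.08 and 5.92 in Nic-free and was higher by 0.71 ± 0.15 (edgeR adjusted p 0.00387), with no overlap. Kcnk6 stood at 9.22, 7.84 and 9.70 CPM in Nic and 5.53, 5.48, 6.17 and 5.59 in Nic-free (0.57 ± 0.13, edgeR adjusted p 0.00523). Its groups do not overlap either. Kcnk9 was higher by 0.94 ± 0.26, and of the A-type genes Kcnd3 by 0.43 ± 0.11 and Kcnip2 by 0.42 ± 0.13 (edgeR adjusted p 0.0169, 0.00959 and 0.0338). Kcnip2 stood at 208 ± 13.7 CPM (SD, n = 3) against 148 ± 8.69 (n = 4). Kcnc2, a Kv3 pore, was higher by 0.38 ± 0.12 (edgeR adjusted p 0.0357) with overlapping ranges.

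By list, 2 of the 11 vessel wall genes were higher (Kcnk6 and Kcnmb1) and 1 lower (Kcnk3), and of the 8 axonal Kv1 and M-current genes 1 was lower (Kcnab2). Of the 4 Kv3 genes 1 was higher and 1 lower. Neuron markers were lower in 10 of 20 and higher in none (0.803-fold, exact two-sided permutation p 0.0571), and endothelial markers were higher in 11 of 20 and lower in none (1.72-fold, exact p 0.114). Pericyte markers were higher in 5 of 10 (1.52-fold, exact p 0.114), astrocyte markers lower in 7 of 12 (0.788-fold, exact p 0.0571) and oligodendrocyte markers lower in 7 of 10 (0.715-fold, exact p 0.114). Microglia markers were lower in 2 of 11, and of 7 oligodendrocyte precursor markers 3 were lower and 1 higher. Their part in the differences was not tested, and 3 libraries against 4 cannot give an exact p below 0.0571. Among the partners Abcc9 was higher by 1.07 ± 0.16, and of the HCN genes Hcn4 was higher by 1.10 ± 0.27 and Hcn2 lower by 0.44 ± 0.12. The count of 18 was 10 without Nic replicate 1 and 11 without Nic-free replicate 2, and Kcnab2, Kcnj6, Kcnk2, Kcnk3, Kcnk6, Kcnmb1 and Kcnmb4 were among the genes that passed in each of 13 alternatives.

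Smoke was compared with the air set. Of 73 genes tested 1 rose and 1 fell, 2.74% of those tested, where 1.6% of all 15232 genes tested passed, and 23 had an unadjusted p under 0.05 (31.5%, against 19.3% of all genes tested). The median log2 fold change was −0.04 over the 73 genes and 0.02 over all genes. Kcnh4, an ether-a-go-go pore of neurons, stood at 51.7, 41.9, 44.99 and 52.2 CPM in smoke and 37.5, 30.02, 30.1 and 38.95 in air. All smoke libraries were above all air libraries. Kcnh4 rose by 0.50 ± 0.11 (95% interval 0.26 to 0.74, edgeR adjusted p 0.0464).

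Kcnab1, a beta subunit that gives Kv1 channels fast inactivation, stood at 34.7, 27.2, 28.3 and 37.04 CPM in smoke and 50.8, 46.00, 47.8 and 40.6 in air. Each smoke library was below each air library. Kcnab1 fell by 0.52 ± 0.11 (95% interval −0.76 to −0.28, edgeR adjusted p 0.0443). Kcna1, its axonal partner, stood at 131, 104, 113 and 134 CPM against 171, 175, 211 and 148 and did not pass (−0.53 ± 0.12, edgeR adjusted p 0.0506).

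A further 11 genes had all smoke libraries below and 1 had all smoke libraries above all air libraries without passing. With the 2 that passed, 16.4% of the 73 genes were lower and 2.74% higher without overlap, where 5.84% and 5.48% of all genes tested were. The 11 include Kcnd2 (−0.46 ± 0.10, edgeR adjusted p 0.0513), Kcnj2 (−0.44 ± 0.11, edgeR adjusted p 0.0615), Kcnc2 (−0.32 ± 0.08, edgeR adjusted p 0.0706) and Kcna6 (−0.36 ± 0.10, edgeR adjusted p 0.0818). None of the 11 vessel wall genes passed, with values from −0.44 (Kcnj2) to 0.47 (Kcnk6), and no channel partner and no HCN gene passed. Neuron markers stood at 0.804-fold and endothelial markers at 1.48-fold of air (exact two-sided permutation p 0.0571 each). Pericyte markers stood at 1.34-fold and oligodendrocyte markers at 0.77-fold (exact p 0.0571 each), and microglia markers at 1.3-fold (exact p 0.0286, adjusted 0.15) with 2 of 11 higher. The part of these markers was not tested. Neither call held without any 1 of the 8 libraries, where 0 genes passed each time, and DESeq2 called 9 genes. With the Room-air set as control neither call was kept.

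The effects of smoke and of nicotine e-cigarettes were set against each other by testing their difference in a fit of all 19 libraries. Of 77 genes 2 had a higher and 11 a lower value for smoke minus air than for Nic minus Room-air. That is 16.9% of those tested, where 5.59% of all 16557 genes tested passed, 2.78% higher and 2.8% lower. The median difference was −0.08 over the 77 genes and 0.02 over all genes. By role, 7 of 28 voltage-gated pores were lower and 1 higher, 2 of 10 inward rectifiers lower and 1 higher, 1 of 12 auxiliary subunits lower, and no two-pore-domain gene passed.

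Kcnj2 led by p. The difference of the effects was −0.85 ± 0.16 (95% interval −1.18 to −0.52, edgeR adjusted p 0.0157). Levels were 13.8, 11.1, 12.3 and 13.9 CPM in smoke and 18.8, 16.3, 17.9 and 17.4 in air, and in Nic and Room-air those given above. Smoke libraries lay below their air libraries, and Nic libraries lay above their Room-air libraries. Kcnh7 had a difference of −0.94 ± 0.21, with 65.8 ± 16.6 CPM in smoke, 88.7 ± 6.34 in air, 117 ± 27.3 in Nic and 78.95 ± 10.4 in Room-air (edgeR adjusted p 0.0234).

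Of the 8 axonal Kv1 and M-current genes 5 were lower and none higher. Kcna4 stood at 11.1, 11.3, 10.2 and 10.8 CPM in smoke and 19.4, 15.9, 13.1 and 12.8 in air, and at 18.4, 20.8 and 15.9 in Nic and 14.7, 13.9, 12.8 and 14.2 in Room-air. The smoke libraries were the lowest and the Nic libraries above their control. The difference was −0.84 ± 0.18 for Kcna4, −0.66 ± 0.15 for Kcna1 and −0.75 ± 0.17 for Kcnab1 (edgeR adjusted p 0.022, 0.0234 and 0.0233). It was −0.58 ± 0.15 for Kcnq3 and −0.60 ± 0.16 for Kcnq5 (edgeR adjusted p 0.0338 and 0.037). Kcnab2 did not pass (0.35 ± 0.23).

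Kcnd2 had a difference of −0.83 ± 0.19, the Kv3 pore Kcnc2 of −0.69 ± 0.15, the GIRK pore Kcnj3 of −0.75 ± 0.18 and the silent subunit Kcnv1 of −0.77 ± 0.20 (edgeR adjusted p 0.0233, 0.0187, 0.0265 and 0.0339). The genes with higher values were Kcnj11 and Kcnh2. Kcnj11 stood at 6.78, 6.80, 4.75 and 7.22 CPM in smoke, 5.47, 3.69, 6.38 and 4.43 in air, 5.64, 5.85 and 6.63 in Nic and 8.58, 9.12, 7.92 and 7.80 in Room-air. Nic libraries lay below Room-air, and smoke and air overlapped. The difference was 0.86 ± 0.24 for Kcnj11 and 0.83 ± 0.24 for Kcnh2 (edgeR adjusted p 0.045 and 0.0488). Among the partners Ank3 (−0.50), Lgi1 (−0.57) and Lrrc55, a BK partner (−0.69), were lower.

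**Figure D4:**
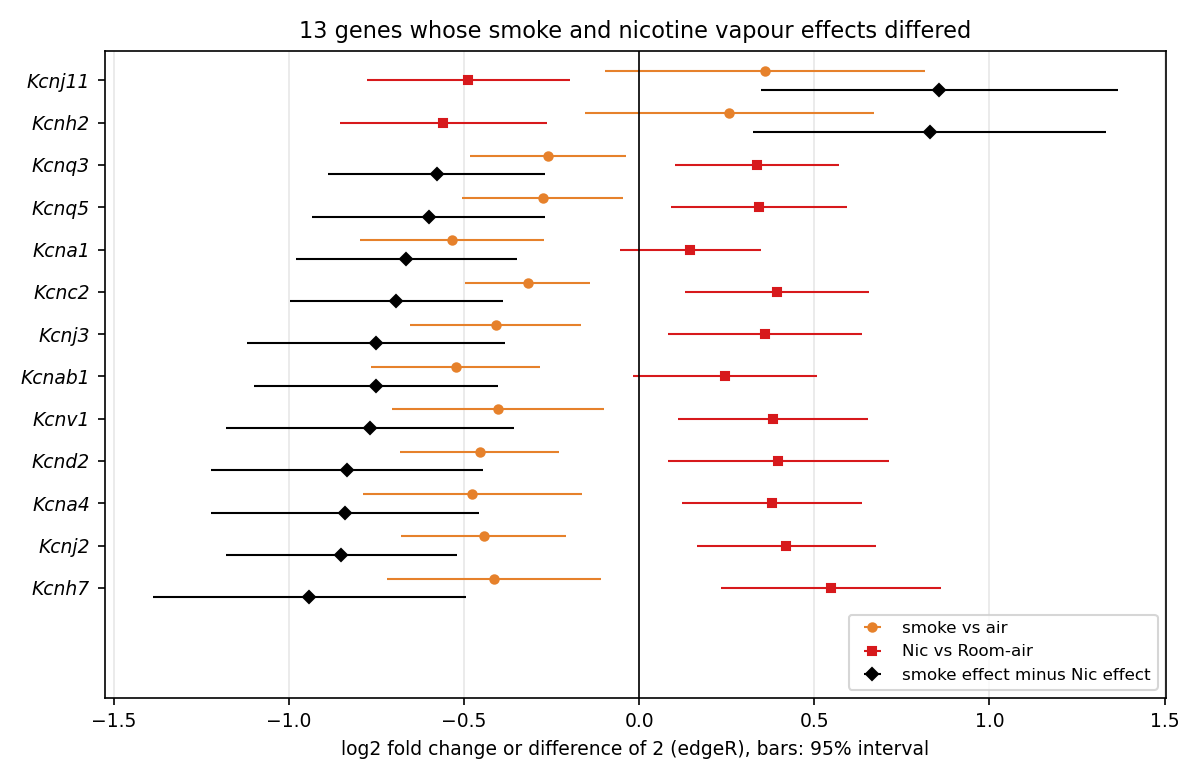
log2 fold change with 95% interval of the 13 genes that passed for the difference of effects, for smoke against air (circles), Nic against Room-air (squares) and their difference (diamonds). For 11 genes the smoke value lies below 0 and the Nic value above 0, and for Kcnj11 and Kcnh2 the order is turned.

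Of the neuron markers 1 of 20 passed in this test, Snap25, lower (list median −0.19), and of the endothelial markers none (0.15). Of the astrocyte markers 2 of 12 were higher (Aldh1l1 and Fgfr3, list median 0.36) and of the microglia markers 2 of 11 (Csf1r and Itgam, 0.23). No choroid plexus or ependyma marker passed, with a list median of 2.05 and 10 of 12 values above 0. The part of these markers was not tested. The test rests on few libraries: without Nic replicate 1 no channel gene passed and without Nic replicate 2 there was 1. There were 6 without Room-air replicate 2, 7 without air replicate 1, and 15 without Nic replicate 3. Smoke and Nic have different controls, which are compared next.

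The air set and the Room-air set carry the same label of exposure and were compared as a measure of how far unexposed sets differ. Of 77 genes 9 were higher and 11 lower in the air set, 26% of those tested, where 22.7% of all genes tested passed. The median log2 fold change was 0.03 over the 77 genes and −0.003 over all genes. By role, 5 of 28 voltage-gated pores were lower and 2 higher, 2 of 10 two-pore-domain genes lower, 2 of 10 inward rectifiers lower and 1 higher, and 4 of 12 auxiliary subunits higher and 1 lower. Ranges did not overlap for 5 of the 9 higher and 9 of the 11 lower genes, and for 2 higher and 3 lower genes that did not pass. Without overlap 9.09% of the 77 genes were higher and 15.6% lower, where 9.9% and 16.5% of all genes tested were.

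Kcnk6 stood at 3.31, 4.82, 3.78 and 4.05 CPM in air and 7.45, 7.07, 8.47 and 8.55 in Room-air. No air library reached a Room-air library, and Kcnk6 was lower by 0.95 ± 0.14 (log2 fold change −0.95, edgeR adjusted p 0.000179). Kcnk9 stood at 1.08, 1.13, 1.56 and 1.04 CPM in air, below the Room-air values given above (−1.74 ± 0.28, edgeR adjusted p 0.000458). Kcna5 stood at 6.40, 5.74, 3.26 and 3.21 CPM in air (−1.09 ± 0.22, edgeR adjusted p 0.00196), also with no overlap. Of the 11 vessel wall genes 4 were lower and none higher: Kcna5, Kcnk6, Kcnj11 (−0.69 ± 0.17) and the SK pore Kcnn3 (−0.49 ± 0.17).

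Other lower genes were Kcna3 (−1.16), Kcne4, an auxiliary subunit that holds back Kv1 and Kv7 pores (−0.99), Kcnq1 (−0.91), Kcnj6 (−0.67), Kcnh1 (−0.56) and Kcnh2 (−0.50). Kcns3, a silent subunit that joins Kv2 pores, led the higher genes. It stood at 10.6, 9.73, 9.93 and 11.5 CPM in air and 7.16, 7.31, 6.17 and 6.79 in Room-air, without overlap (0.64 ± 0.13, edgeR adjusted p 0.00182). Kcnu1, a relative of the BK pore known from sperm, stood at 6.47, 7.27, 5.71 and 5.38 CPM against 3.91, 4.16, 4.31 and 3.94 (0.64 ± 0.15, edgeR adjusted p 0.00617). Kcnmb4 (0.67 ± 0.17), Kcnip4 (0.52 ± 0.12), Kcnab3 (0.46 ± 0.10) and Kcnj3 (0.44 ± 0.12) were higher as well. So were Kcna1 (0.29), Kcna6 (0.28) and Kcnip3 (0.28).

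Among the partners Lgi1 (0.36) and Lrrc55 (0.40) were higher and Abcc9 (−0.91) lower, and of the HCN genes Hcn4 (−1.67) was lower. Endothelial markers were lower in 12 of 20 and higher in none (0.583-fold, exact two-sided permutation p 0.0286, adjusted 0.15), pericyte markers lower in 7 of 10 (0.611-fold, exact p 0.0286), and neuron markers higher in 5 of 20 (1.2-fold, exact p 0.0571). Oligodendrocyte markers were higher in 5 of 10 (1.42-fold, exact p 0.0286), and choroid plexus and ependyma markers stood at 0.388-fold (exact p 0.0286) with none past the threshold. Reads outside annotated features were 35.4 ± 1.63% in air and 30.7 ± 2.28% in Room-air. The air libraries were also less deep, as given above. The part of markers, these reads and depth in the differences was not tested.

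**Figure D5:**
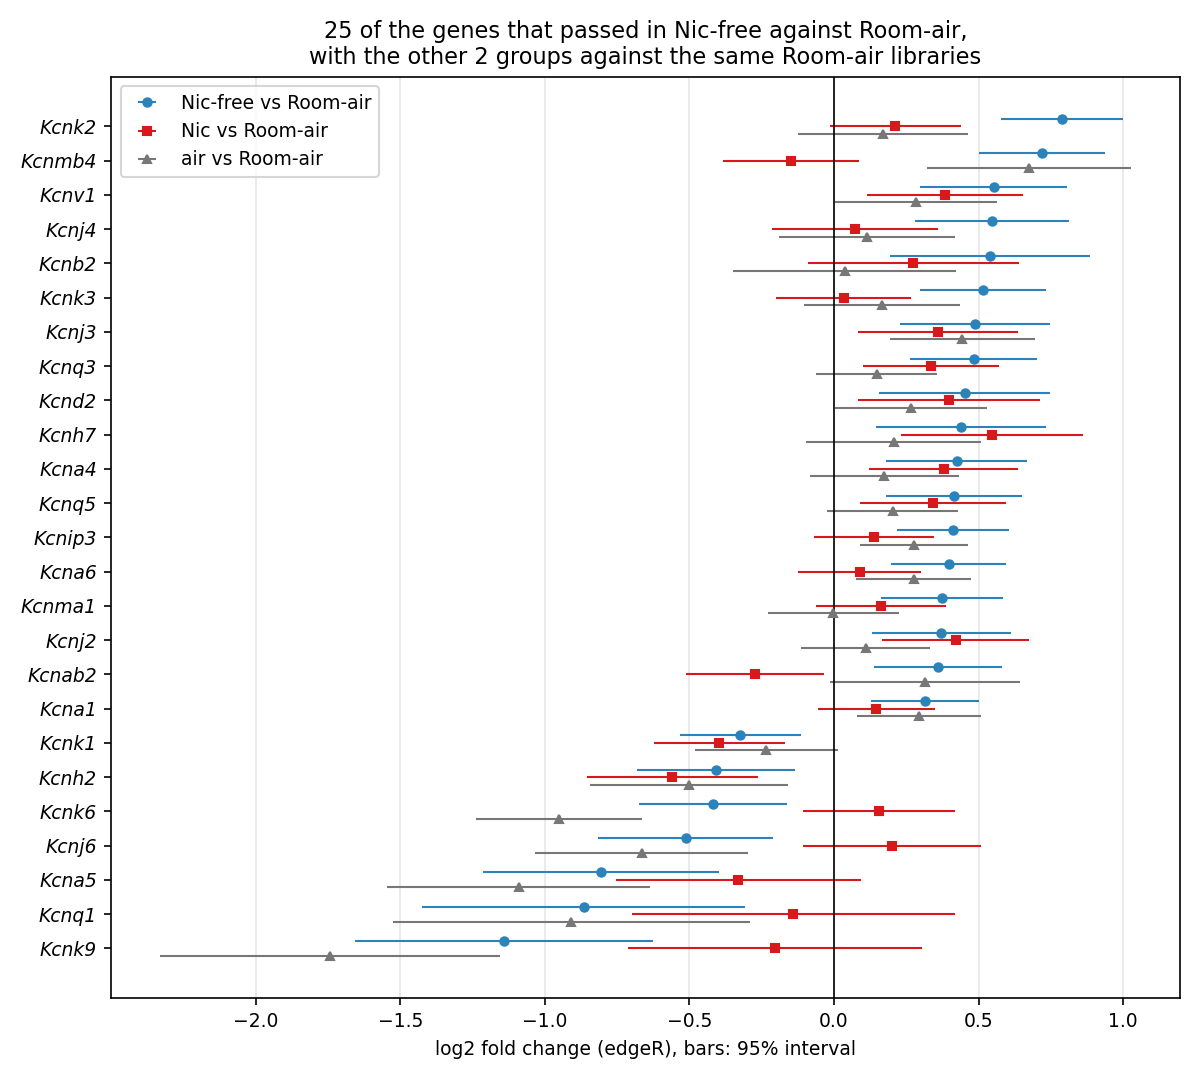
log2 fold change with 95% interval of 25 of the 26 genes that passed in Nic-free against Room-air (circles), beside Nic (squares) and the air set (triangles) against the same Room-air libraries. Kcnk2 stands at 0.79 in Nic-free, 0.21 in Nic and 0.17 in air, and Kcnk9 at −1.14, −0.20 and −1.74; the 3 comparisons share their control.

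Against the Room-air libraries, which both share, 5 genes passed as higher in both Nic-free and the unexposed air set. They were Kcna1, Kcna6, Kcnip3, Kcnj3 and Kcnmb4. Lower in both were 6: Kcna5, Kcnh2, Kcnj6, Kcnk6, Kcnk9 and Kcnq1. No gene passed in opposite directions, and the rest of the 26 genes of Nic-free did not pass in air. Both comparisons take the same Room-air libraries as reference, so agreement of direction cannot be read as a trait of these genes. The matching counts over all genes were not made. Values of some genes stand side by side as follows. Kcnmb4 had 0.72 ± 0.10 in Nic-free and 0.67 ± 0.17 in air, Kcna5 −0.81 ± 0.19 and −1.09 ± 0.22, and Kcnh2 −0.41 ± 0.13 and −0.50 ± 0.16. Kcnk2 had 0.79 ± 0.10 and 0.17 ± 0.14, and Kcnj4 0.55 ± 0.12 and 0.11 ± 0.15.

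Several abundant genes passed in none of the comparisons. Kcnt1 stood at 352 ± 73.8, 352 ± 24.96, 361 ± 54.7, 432 ± 44.3 and 422 ± 59.7 CPM in Room-air, Nic-free, Nic, air and smoke. Kcnc1, a Kv3 pore, ranged from 120.1 to 211 CPM over the 19 libraries. Kcnh3 ranged from 129 to 234 and Kcnj9 from 82.4 to 142. Kcnj12 and Kcnn4 of the vessel wall list, at 8.48 and 2.08 CPM on average, passed in none either. The intervals of the log2 fold change of Kcnn4 were wide, such as −0.80 to 0.25 in Nic-free against Room-air, so a change of moderate size was not detectable at its level.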

How the data were processed

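Cerebral microvessel RNA of 19 samples in 5 groups was measured by RNA sequencing. The authors deposited raw gene counts, 1 file per sample; per the submitters' processing notes STAR, HTSeq and the build mm10 were used, with versions and the strand setting not given in the sources used here. The 5 summary lines that name no gene stayed out of totals: 28.66 to 45.16% of reads lay outside features and 0.35 to 0.51% were ambiguous. Depth was 7939180 to 30185056 counts per library.

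Counts were tested with edgeR 4.0.16 (R 4.3.3; TMM, filterByExpr, quasi-likelihood, robust, two-sided) with Benjamini-Hochberg adjustment over all genes tested and a threshold of 0.05. The e-cigarette comparisons were fitted on Room-air, Nic-free and Nic, smoke on air and smoke, and the last 2 comparisons on all 19 libraries. The fits were tested on simulated data. Levels are counts per 1000000 (CPM); lengths are unions of exons of GENCODE M21 (GRCm38), and promoter windows come from RefSeq. Marker lists were compared by exact permutation (scipy 1.17.1).

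Named are the 12 genes with the lowest p per direction among those past the threshold, the 12 with the highest CPM per kb, the members of 5 channel lists and passing genes of the partner and HCN lists. The genes and lists were chosen with earlier results of these data known. A few genes that were analysed and enter the counts are not reported here by name or in figures. Replicate numbers are the labels'. Same-numbered libraries correlated between −0.39 and 0.25 in their deviations from group means, not all above 0.1, so no pairing was used. Alternatives were DESeq2 1.42.0, RLE scaling, no filter, a replicate block, other sets of libraries in the fit, the other room-air set as control and leaving out each library.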

Additional observations from a re-analysis of the deposited data

Results flagged for a closer look

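In 9 of 212 sets of 4 values, 1 library lay far from the other three by Dixon's test, where chance gives about 1 in 20, or 10.6 sets. In Room-air replicate 1 Kcna1 was at 153.1 CPM (others 145.6 to 146.2), Kcnip4 at 25.1 (16.5 to 17.5) and the scarce GIRK subunit Kcnj5 at 2.92 (0.396 to 0.638). In Nic-free replicate 4 Kcnab1 was at 53.4 CPM (others 40.0 to 41.3) and Kcnj6 at 5.92 (4.08 to 4.28), and in Nic-free replicate 3 Kcnk6 was at 6.17 (5.48 to 5.59). Smoke replicate 3 was low for Kcnip3 at 97.8 CPM (others 114.7 to 117.5), and smoke replicate 4 was high for Kcnk6 at 6.5 (4.91 to 5.16). Air replicate 2 was low for Kcnv1 at 37.5 CPM (others 52.2 to 53.0).

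In 13 genes the smoke effect differed from the nicotine e-cigarette effect by the test of the difference itself (edgeR, adjusted p under 0.05, fit of all 19 libraries). On the log2 scale the difference was −0.94 for Kcnh7, −0.85 for Kcnj2, −0.84 for Kcna4, −0.83 for Kcnd2, −0.77 for Kcnv1, −0.75 for Kcnab1 and −0.75 for Kcnj3. It was −0.69 for Kcnc2, −0.66 for Kcna1, −0.60 for Kcnq5 and −0.58 for Kcnq3, and it was 0.86 for Kcnj11 and 0.83 for Kcnh2. The 2 effects have different unexposed controls, and 22.7% of all genes tested passed between those controls. Of the 13 genes, Kcnj11 and Kcnh2 also passed as lower and Kcna1 and Kcnj3 as higher in air against Room-air. Mean Kcnj11 was 6.39 CPM in smoke, 6.04 in Nic, 4.99 in air and 8.35 in Room-air. The part of the controls in the differences was not tested.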

How the results depend on the processing

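The number of channel genes past the threshold, leaving out 1 library at a time, ran from 13 to 26 in Nic-free against Room-air (26 with all), 0 to 15 in Nic against Room-air (1), 10 to 18 in Nic against Nic-free (18), 0 to 0 in smoke against air (2), 15 to 19 in air against Room-air (20) and 0 to 15 for the difference of effects (13). With the air set as control 6 genes passed in Nic-free and 19 in Nic, and with the Room-air set as control 9 passed in smoke. Nic against Room-air had 8 genes with DESeq2, 2 with RLE scaling, 2 without the filter, 2 with only its 2 groups in the fit and 0 with all libraries in 1 fit. Smoke against air had 9 with DESeq2, 1 with RLE scaling, 4 without the filter and 6 with all libraries in 1 fit. With the replicate block the counts were 23, 0, 14, 0, 18 and 11 in the order above; the replicate numbers do not pair the libraries. The cause of these shifts was not tested. The other counts stayed within 1.5 times.

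Of the genes that passed, 6 changed sign in Nic-free with the air set as control: Kcnk9 (0.59), Kcnk6 (0.52), Kcna5 (0.27), Kcnj6 (0.14), Kcnh2 (0.0823) and Kcnq1 (0.0287), on the log2 scale. No other gene that passed changed sign under any alternative. In Nic-free 1 of 26 genes, Kcnk2, passed in all 15 alternatives, in Nic against Nic-free 8 of 18 in all 13, and in air against Room-air 13 of 20 in all 13. None did so in the other three. Depth limits the scarce genes: 13 were too low to test in any comparison.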
